A study of Saccharomyces cerevisiae with 4 samples.

Results

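The genes described here encode the enzymes of glycolysis, the pyruvate decarboxylases, the enzymes of the pentose phosphate pathway and those that make glycerol in Saccharomyces cerevisiae. The list names 34 genes, and 33 of them were read on a probe set annotated to that gene alone, out of 5656 such genes on the array. TDH2 was read only on probe sets shared with its relatives. For each gene the probe set of highest mean signal was used, and all 33 passed the filter on dim probe sets, among 4576 genes tested. RNA came from 2 cultures of a strain with mutant histone H3 K4,36,79R and 2 cultures of a wild-type strain, all at 0 h. In the mutant H3, lysines 4, 36 and 79 are arginine. All 4 cultures were in mid-log growth in a selective medium with galactose, and were collected at an OD600 of 0.5 to 0.7. Per the design text, wild-type H3 is shut off only by the later move to glucose, so at 0 h the mutant strain still made wild-type H3 as well. The labels give no further genotype, and the deposited values do not check the H3 alleles. The samples thus show how far the strains stood apart before that move.

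Glycolysis splits glucose, or galactose that has been converted to glucose 6-phosphate, into pyruvate with a net gain of ATP and NADH. Yeast then turns most of the pyruvate into ethanol through pyruvate decarboxylase, even in air when sugar is plentiful. The pentose phosphate pathway branches off at glucose 6-phosphate. Its oxidative arm makes NADPH, and its non-oxidative arm makes ribose 5-phosphate and erythrose 4-phosphate for nucleotides and aromatic amino acids. Glycerol is drawn from dihydroxyacetone phosphate, rebalances NADH and serves as the osmolyte of yeast. Many of these steps have 2 or 3 isoenzymes, one abundant during fermentation and another known from stress, slow growth or non-fermentable carbon sources.

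The median deposited signal was 38.6 and 42.9 on the mutant arrays and 47.6 and 39.3 on the wild-type arrays, in MAS5 intensity units. The mutant signals carry more decimals than the wild-type signals, so a further scaling factor may have been applied to the mutant arrays alone. Deposited signals, their sums and the fit without centring may thus not share a common scale between the strains. The growth medium was checked on marker genes. Of 7 listed galactose genes 5 were tested, since GAL3 lay below the filter and MEL1 had no probe set annotated to it alone. GAL3 read 14.26 and 14.97 in the mutant and 16.8 and 20.5 in the wild type. All 5 tested galactose genes lay lower in the mutant, as did 51.6% of all tested genes. Of these 5, 0 passed the limma test, adjusted or not, and the median difference was -0.21 on the log2 scale. GAL1, which encodes galactokinase, read 1058 and 1263 in mutant cultures, against 1454 and 1424 in wild-type cultures. HXT1, a glucose transporter gene induced by high glucose, lay below the filter, with signals of 16.7 and 15.8 in the mutant and 14.3 and 14.1 in the wild type. HXT3, a low-affinity glucose transporter gene, read 80.4 and 86.5 in the mutant against 111 and 162 in the wild type, a difference of -0.57 (limma unadjusted p = 0.0368, adjusted p = 0.553). The largest difference among all tested genes was in URA3, a gene of uracil synthesis and a common selection marker, with 594 and 643 in the mutant against 14.1 and 14.6 in the wild type. The 3'-to-5' signal ratio of the actin control probe sets, a measure of RNA integrity, was 1.81 and 1.53 in the mutant and 1.53 and 1.40 in the wild type. Signals are given as deposited, and which arrays lie above or below others is stated after centring, since the median log2(signal + 2) over the tested genes was 6.51 and 6.64 on the mutant arrays and 6.71 and 6.64 on the wild-type arrays. Probe sets differ in how strongly they bind, so signals are compared between arrays for 1 gene and not between genes.

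None of the 33 genes passed the test between the strains. With limma and Benjamini-Hochberg adjustment over all 4576 genes, 0 rose and 0 fell, at adjusted p-values from 0.547 to 0.997, while 0.0437% of all tested genes passed. Differences are mutant minus wild type, on the log2(signal + 2) scale after each array was centred on its median. The median over the 33 genes was -0.08, against -0.01 over all tested genes. Of the 33 genes, 21 lay lower and 12 higher in the mutant by any amount, a share of 63.6% lower where all tested genes gave 51.6%. At an unadjusted p under 0.05, GPD2 was higher and PDC6, RPE1 and GPP1 were lower. That is 1 gene up and 3 down, or 3.03% and 9.09% of the list, where 4.92% and 3.61% of all tested genes stood. Of these, PDC6 passed the filter only through its wild-type signals. No gene differed by as much as 2-fold, and 17 of the 33 differed by less than 0.15. Standard errors ran from 0.16 to 0.43 with 2 arrays per strain. Because RNA was taken from whole cultures, fewer expressing cells and less RNA per cell cannot be told apart.

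**Figure D1:**
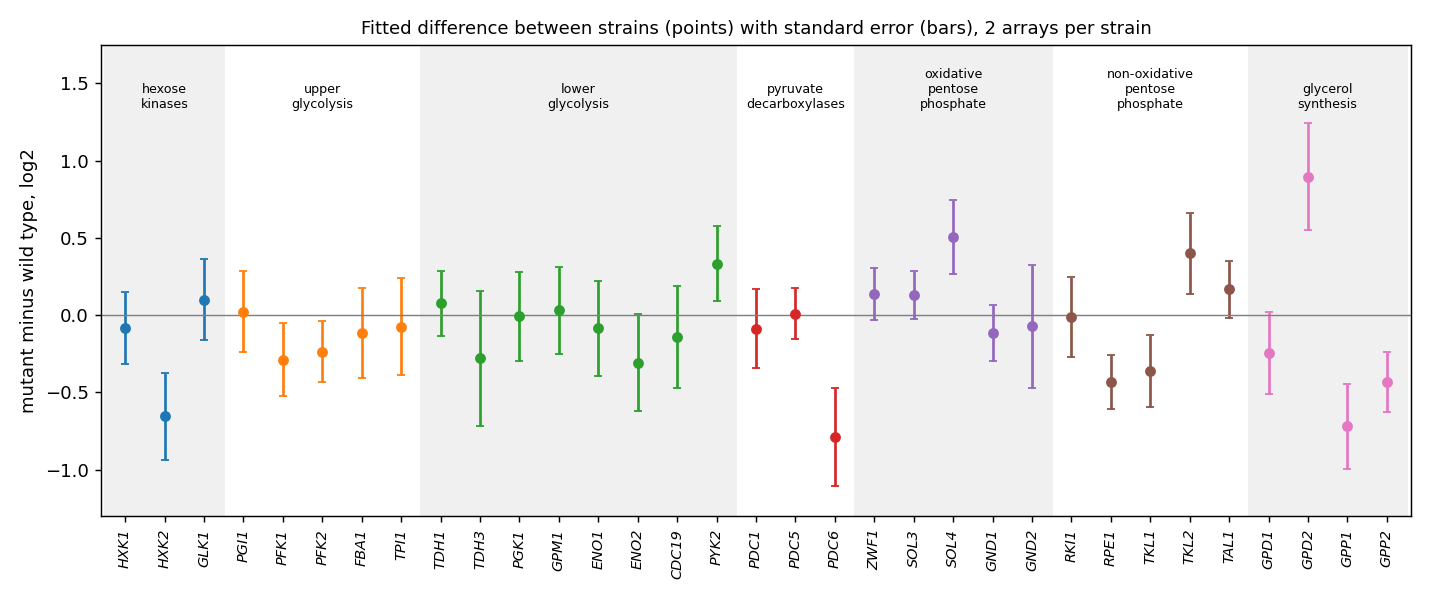
Fitted log2 difference, mutant minus wild type, for each of the 33 genes (points) with its standard error (bars), grouped by role along the horizontal axis, 2 arrays per strain. The points run from -0.79 for PDC6 to 0.90 for GPD2, and 17 of 33 lie within 0.15 of 0.

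In most of these genes the gap between the wild-type cultures exceeded the difference between the strains. Between wild-type replicate 2 and wild-type replicate 1 the median difference over the 33 genes was 0.47, with 26 genes higher in replicate 2. The share of 78.8% stands beside 53.8% of all tested genes, whose median difference was 0.04. Between mutant replicate 2 and mutant replicate 1 the median was 0.15, with 24 genes higher in replicate 2, or 72.7% beside 52.1% of all tested genes. For 26 of the 33 genes the gap was wider in the wild type than in the mutant, a share of 78.8% beside 67.4% of all tested genes. For 27 the difference between strains was smaller than the wild-type gap, or 81.8% beside 64.5%, so most genes on the array had that order too. In 13 genes, 39.4% of the list beside 25.4% of all tested genes, both mutant arrays lay between the wild-type arrays. These counts depended on the scaling. Mutant arrays lay between in 8 of the 33 genes with quantile normalisation, 7 with cyclic loess and 8 without centring, or 24.2%, 21.2% and 24.2%, beside 22.1%, 22.6% and 19.7% of all tested genes. Wild-type replicate 2 was the higher in 19, 21 and 26 genes under the same 3 scalings, or 57.6%, 63.6% and 78.8%, beside 50.7%, 49.8% and 46.5%. After centring, both mutant arrays lay above both wild-type arrays in 2 genes and below them in 7. Those shares of 6.06% and 21.2% stand beside 21% and 18.5% of all tested genes. The wild-type arrays were at least 2-fold apart in 3 of the 33 genes, GND2, TDH3 and GPD2, which is 9.09% beside 2.27% of all tested genes.

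**Figure D2:**
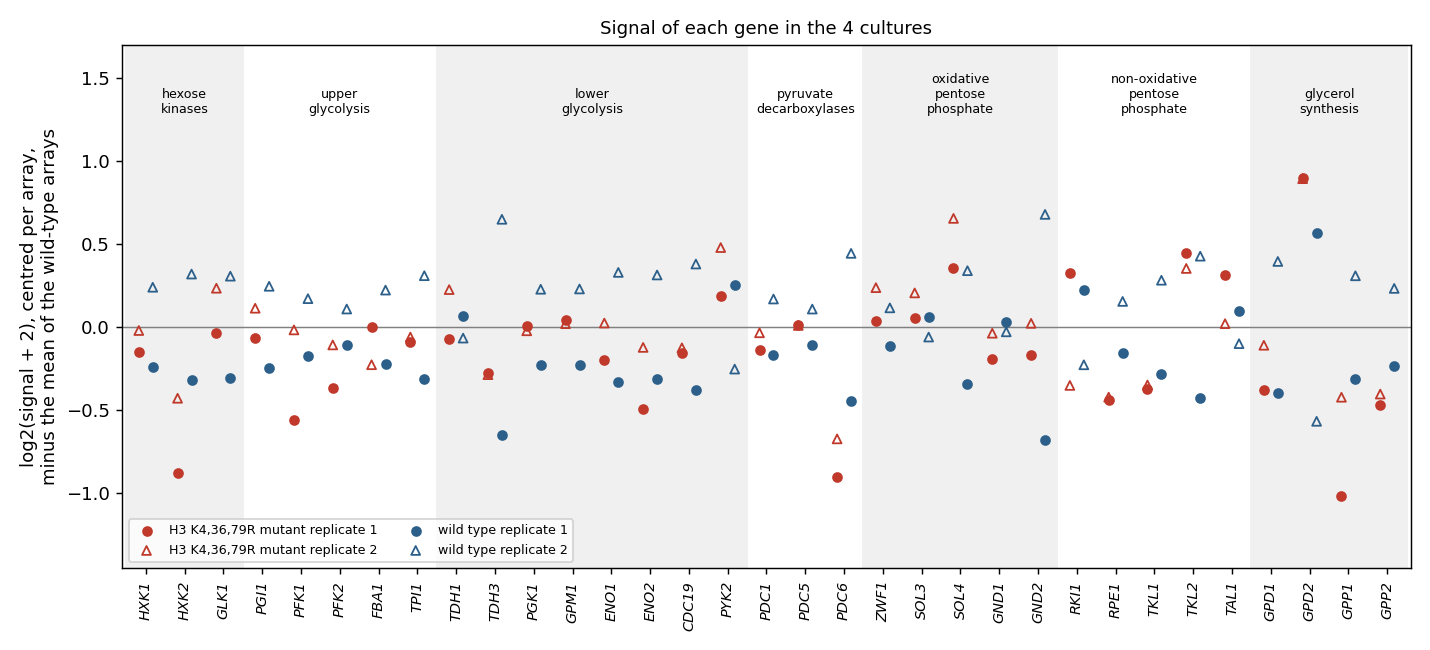
Centred log2(signal + 2) of each gene on each of the 4 arrays, minus the mean of its wild-type arrays; red marks are mutant and blue marks wild type, circles replicate 1 and triangles replicate 2. The blue triangle lies above the blue circle in 26 of 33 genes, and both red marks lie between the blue marks in 13.

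After centring, the median gap between the wild-type replicates was larger over the bright genes of the list than over the others, although GND2 and GPD2, with 2 of the 3 widest single gaps, were dim. Over the 11 genes of the list with a mean signal above 1000 it was 0.62, with all 11 higher in wild-type replicate 2, and over the other 22 it was 0.33, with 15 higher. Among 180 genes outside the list with a mean signal above 1000, of which 61 encode cytosolic ribosomal proteins, the median gap was 0.44 and 176 were higher in wild-type replicate 2. In 111 of the 180, or 61.7%, and in 8 of the 11, or 72.7%, both mutant arrays lay between the wild-type arrays. The share over all tested genes was 25.4%. The mutant replicates were 0.03 apart over the 11 bright genes of the list and 0.03 over the 180. Bacterial and phage control transcripts, which are designed to be added to the hybridisation in fixed amounts, differed as well. The 2 CreX control probe sets read 703 and 681, and 671 and 690, on the mutant arrays, against 821 and 1561, and 688 and 1191, on the wild-type arrays. Of the 9 BioB, BioC, BioD and Cre control probe sets, 7 were higher on wild-type replicate 2 by 0.11 to 1.23, and both BioC probe sets were lower, by -0.80 and -0.59. With quantile normalisation the median gap of the wild-type replicates over the 33 genes was 0.10, and with cyclic loess 0.14, both of which even out signal-dependent differences between arrays. The 11 bright genes of the list then stood at 0 and 0.08, below the other 22 at 0.13 and 0.15, and the 180 bright genes outside the list at -0.01 and 0.02. What part the array and what part the culture had in the gap was not tested.

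**Figure D3:**
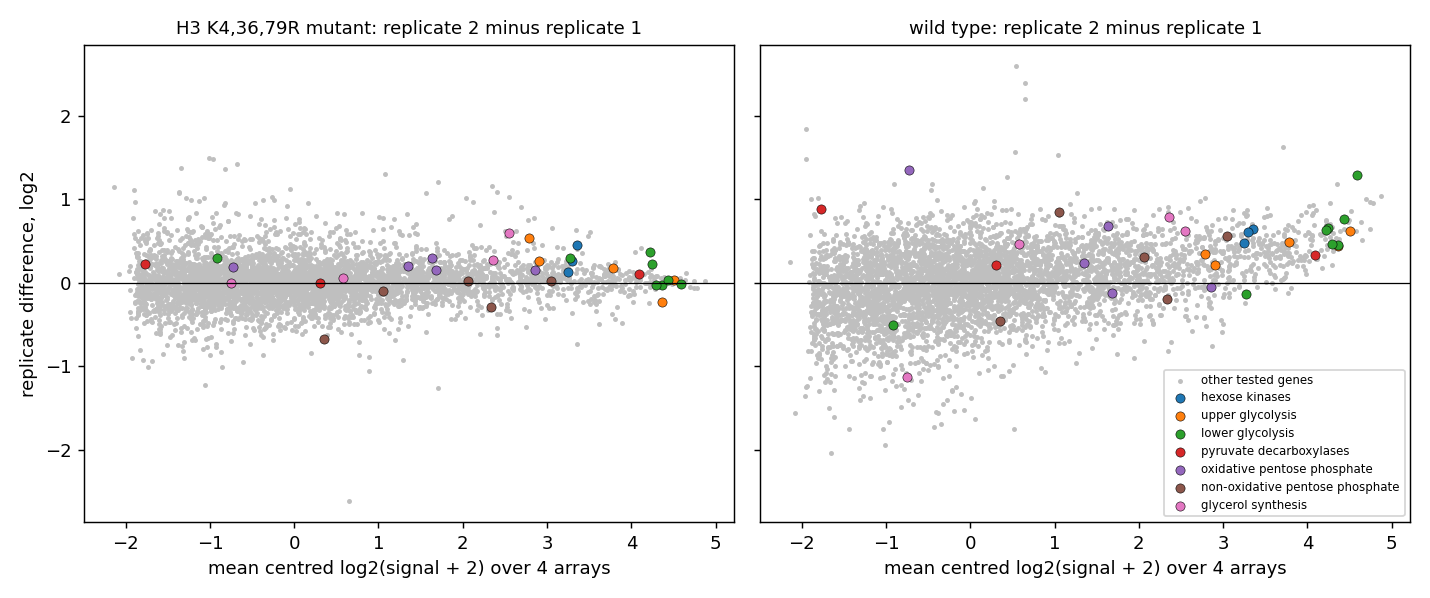
Log2 difference of replicate 2 minus replicate 1 against mean centred log2(signal + 2), for the mutant (left) and the wild type (right); grey points are the other tested genes and coloured points the 33 genes by role. In the wild type the points climb at the bright end, and TDH3 at 1.30 and GND2 at 1.36 stand highest among the coloured points.

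The hexose kinases carry out the first step, the phosphorylation of glucose and fructose. HXK2 (YGL253W) encodes the hexokinase that predominates on glucose and also acts in glucose repression. HXK2 read 632 and 949 in mutant cultures, against 1078 and 1598 in wild-type cultures. Both mutant signals lay below both wild-type signals, although replicate 2 was the brighter culture in each strain. The difference was -0.65 (SE 0.28, limma adjusted p = 0.586), with an SD of 0.32 in the mutant and 0.45 in the wild type (n = 2 each). HXK1 (YFR053C), the hexokinase known from poor carbon sources, read 798 and 956 in the mutant and 865 and 1148 in the wild type, a difference of -0.08. GLK1 (YCL040W), glucokinase, read 838 and 1106 in the mutant and 800 and 1166 in the wild type, a difference of 0.10. For both of these genes the mutant arrays lay between the wild-type arrays. A second GLK1 probe set, shared with the open reading frame YCL042W, gave 0.15.

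In upper glycolysis hexose phosphates are isomerised, phosphorylated again and split into triose phosphates. The 5 genes of this stretch ran from -0.29 to 0.02. PFK1 (YGR240C) and PFK2 (YMR205C) encode the alpha and beta subunits of phosphofructokinase, the committed step. PFK1 read 468 and 749 in mutant cultures, against 708 and 855 in wild-type cultures. The strains overlapped, since mutant replicate 2 lay above wild-type replicate 1, and the difference was -0.29 (SE 0.24, limma adjusted p = 0.792). PFK2 read 571 and 750 in the mutant and 789 and 874 in the wild type, at -0.24 (SE 0.20). In deposited units the PFK2 signals did not overlap, but after centring the strains met, with mutant replicate 2 just above wild-type replicate 1. TPI1 (YDR050C), triose phosphate isomerase, had the widest wild-type gap of the stretch, 0.62. Its signals were 1988 and 2229 in the mutant and 1974 and 2885 in the wild type, a difference of -0.07 (SE 0.32, limma adjusted p = 0.975). PGI1, phosphoglucose isomerase, stood at 0.02 and FBA1, the aldolase, at -0.11. FBA1 was read at 1940 and 1819 in the mutant and 1920 and 2489 in the wild type, and after centring mutant replicate 2 and wild-type replicate 1 lay together, both at 4.19, with wild-type replicate 2 highest at 4.64.

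Lower glycolysis carries triose phosphate to pyruvate and yields the ATP. Its 8 tested genes ran from -0.31 to 0.33. In 5 of them, or 62.5%, both mutant arrays lay between the wild-type arrays. The share was 25.4% over all tested genes and 61.7% over the 180 bright genes outside the list. TDH3 (YGR192C) encodes the main glyceraldehyde-3-phosphate dehydrogenase. TDH3 read 1996 and 2174 in mutant cultures, against 1780 and 4166 in wild-type cultures. The mutant arrays lay together, above wild-type replicate 1 and far below wild-type replicate 2. The mutant replicates differed by -0.01 and the wild-type replicates by 1.30, and the difference between strains was -0.28 (SE 0.43, limma adjusted p = 0.902). The TDH3 probe set is coded as an incomplete set of unique probes, and probe sets shared with its relatives gave a narrower gap. The probe set shared by TDH2 and TDH3, the only kind on which TDH2 was read, gave 2346 and 2419 in the mutant and 2165 and 3243 in the wild type. Its difference was -0.05, and its wild-type gap 0.65. A probe set common to TDH1, TDH2 and TDH3 stood at -0.17, with a wild-type gap of 0.58.

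TDH1 (YJL052W), the isoenzyme known from slow growth and stress, did not share that gap. TDH1 read 807 and 1091 in mutant cultures, against 1028 and 893 in wild-type cultures, with wild-type replicate 2 the lower of its pair by -0.13. The strains overlapped fully, at a difference of 0.08. PGK1, which encodes phosphoglycerate kinase, differed by -0.01, and GPM1, the phosphoglycerate mutase gene, by 0.03. PGK1 read 1885 and 2031 in the mutant and 1854 and 2420 in the wild type, and GPM1 read 1809 and 1956 in the mutant and 1731 and 2266 in the wild type. Both enolase genes were read on incomplete probe sets as well. ENO2 (YHR174W), the glucose-induced enolase, read 1340 and 1903 in the mutant and 1754 and 2580 in the wild type, at -0.31 (SE 0.31). ENO1 (YGR254W) read 1548 and 1979 in the mutant and 1631 and 2451 in the wild type, at -0.09. The probe set shared by both enolase genes lay between these, at -0.19.

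Pyruvate kinase closes the pathway. CDC19 (YAL038W), the main pyruvate kinase gene, read 1851 and 2078 in mutant cultures, against 1834 and 2955 in wild-type cultures. Again the mutant arrays lay together between the wild-type arrays, at a difference of -0.14 (SE 0.33). PYK2 (YOR347C), the pyruvate kinase that is not activated by fructose 1,6-bisphosphate, was dim. PYK2 read 46.7 and 63.4 in the mutant and 56.9 and 37.5 in the wild type. This was the largest difference of lower glycolysis, 0.33 (SE 0.24, limma adjusted p = 0.740), and the strains overlapped. Wild-type replicate 2 was the lowest of the 4 arrays for PYK2, unlike for CDC19.

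Pyruvate decarboxylase commits pyruvate to ethanol. PDC1, its main gene, read 1446 and 1708 in mutant cultures and 1638 and 1971 in wild-type cultures, at -0.09. PDC5, which takes over when PDC1 is lost, read 111 and 122 in the mutant and 118 and 131 in the wild type, at 0.01 (SE 0.17). For both genes the mutant arrays lay between the wild-type arrays after centring. PDC6 (YGR087C), a minor isoenzyme gene known from sulfur limitation, read 16.7 and 22.1 in the mutant, against 27.7 and 50.3 in the wild type. Both mutant signals were lower than both wild-type signals, by -0.79 (SE 0.32, limma unadjusted p = 0.0388, adjusted p = 0.558). These signals are close to the limit of the filter, and the wild-type replicates alone were 0.89 apart.

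The oxidative arm of the pentose phosphate pathway runs from glucose 6-phosphate to ribulose 5-phosphate. ZWF1, glucose-6-phosphate dehydrogenase, read 224 and 284 in mutant cultures and 234 and 261 in wild-type cultures, at 0.14 (SE 0.17). SOL3 and SOL4 encode 6-phosphogluconolactonases. SOL3 read 288 and 352 in the mutant and 334 and 293 in the wild type, at 0.13 (SE 0.16). SOL4 (YGR248W), the stress-associated copy, read 301 and 407 in the mutant, against 214 and 328 in the wild type. After centring both mutant arrays lay above both wild-type arrays, though mutant replicate 1 and wild-type replicate 2 nearly met at 1.74 and 1.72. The difference was 0.51 (SE 0.24, limma adjusted p = 0.619).

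The last oxidative step, 6-phosphogluconate dehydrogenase, is encoded by GND1 and GND2. GND1, the major copy, read 599 and 733 in mutant cultures and 808 and 739 in wild-type cultures, at -0.11 (SE 0.18), with mutant replicate 2 and wild-type replicate 2 nearly level at 2.88 and 2.89 after centring. GND2 (YGR256W), the minor copy, read 48.2 and 60.8 in the mutant, against 38.7 and 97.2 in the wild type. Its wild-type replicates stood 1.36 apart, the widest gap of the list, and the mutant replicates 0.19 apart between them. The difference between strains was -0.07 (SE 0.40, limma adjusted p = 0.982). In the gene order of RefSeq assembly R64, GND2 and ENO1 stand near each other with 1 gene between them. Whether position had a part in the gap was not tested.

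The non-oxidative arm interconverts pentose and hexose phosphates. RPE1 (YJL121C), ribulose-phosphate epimerase, read 323 and 359 in mutant cultures, against 456 and 538 in wild-type cultures. Neither mutant culture reached the lower wild-type culture, and the difference was -0.43 (SE 0.17, limma unadjusted p = 0.0397, adjusted p = 0.559). The mutant replicates of RPE1 agreed within 0.02 and the wild-type replicates within 0.31. RKI1, ribose-5-phosphate isomerase, which acts on the same substrate, did not separate the strains. RKI1 read 144 and 98.4 in the mutant and 156 and 108 in the wild type, with replicate 2 lower in both and a difference of -0.01. TAL1, transaldolase, read 534 and 478 in the mutant and 532 and 441 in the wild type, at 0.17 (SE 0.18).

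Transketolase transfers 2-carbon units and has a major gene, TKL1, and a minor one, TKL2. TKL1 (YPR074C) read 654 and 730 in mutant cultures, against 804 and 1133 in wild-type cultures, at -0.36 (SE 0.23, limma adjusted p = 0.720). Both mutant arrays lay below both wild-type arrays. TKL2 (YBR117C) read 222 and 229 in the mutant, against 139 and 241 in the wild type, at 0.40 (SE 0.26, limma adjusted p = 0.724). Here the mutant replicates were -0.09 apart and wild-type replicate 1 alone was low, 0.85 below wild-type replicate 2. TKL2 is the one gene of the list with several probe sets of its own, 3 in all, and the others gave differences of 0.78 and 0.25. The set used above has a g in its code, as do some sets shared between genes, while the others are plain. The probe set at 0.78 read 162 and 164 in the mutant, against 93.0 and 110 in the wild type, without overlap. The one at 0.25 read 108 and 107 in the mutant and 104 and 89.7 in the wild type. All 3 lay in the same direction between the strains, with sizes that disagreed. The wild-type gap disagreed too, at 0.31 on the probe set at 0.78 and -0.14 on the one at 0.25.

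Glycerol synthesis held the highest value of the list and 2 of its 4 lowest. GPD1 and GPD2 encode the NAD-dependent glycerol-3-phosphate dehydrogenases, GPD1 the osmotically induced one and GPD2 the one tied to redox balance without oxygen. GPD2 (YOL059W) read 72.1 and 79.0 in mutant cultures, against 66.0 and 27.5 in wild-type cultures. The mutant arrays matched within 0.01 after centring and both lay above both wild-type arrays, which were -1.13 apart. The difference was 0.90 (SE 0.35, 1.86-fold, limma unadjusted p = 0.0332, adjusted p = 0.547), and it was 1.46 when wild-type replicate 1 was left out and 0.33 when replicate 2 was. GPD1 (YDL022W) read 389 and 516 in the mutant and 445 and 734 in the wild type, with the mutant arrays between the wild-type arrays and a difference of -0.24 (SE 0.27).

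GPP1 and GPP2 encode the glycerol-3-phosphate phosphatases of the last step. GPP1 (YIL053W), the more abundant form in unstressed cells, read 336 and 558 in mutant cultures, against 636 and 930 in wild-type cultures. Replicate 2 was the higher culture by about the same amount in both strains, 0.59 in the mutant and 0.62 in the wild type. The mutant cultures lay below both wild-type cultures, by -0.72 (SE 0.28, 0.608-fold, limma unadjusted p = 0.0325, adjusted p = 0.547). GPP2 (YER062C), the osmotically induced form, read 112 and 129 in the mutant, against 153 and 202 in the wild type. It too did not overlap between the strains, at -0.43 (SE 0.19, limma adjusted p = 0.609). Thus 2 of the 4 glycerol genes had both mutant arrays below the wild-type arrays, GPD2 had them above, and GPD1 had them between. Of all tested genes, 18.5% had them below, 21% above and 25.4% between, and 4 genes are too few to set against these shares.

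Splitting the isoenzymes by their known setting of use gave small medians on both sides. Of 13 measured major glycolytic isoenzymes, 0 passed the limma test in either direction, also without adjustment. Among them 11 lay lower and 2 higher, with a median of -0.11. That is 84.6% lower, beside 51.6% of all tested genes and 68.9% of the 180 bright genes outside the list. In 8, or 61.5%, both mutant arrays lay between the wild-type arrays, beside 25.4% of all tested genes and 61.7% of the 180. Of 10 isoenzymes known from stress, slow growth or non-fermentable carbon sources, 0 passed and PDC6 alone was under 0.05 without adjustment, 5 lay lower and 5 higher, with a median of 0.00. The second group ranged from -0.79 for PDC6 to 0.51 for SOL4. Its median gap between the wild-type replicates was 0.65, against 0.49 in the first, so both groups were higher in wild-type replicate 2. Of 22 stress genes outside the list, 17 lay higher in the mutant with a median of 0.37, or 77.3% beside 48.4% of all tested genes, and 1 of them, SIP18, passed the test. At an unadjusted p under 0.05, 9 were higher and 1 lower, or 40.9% and 4.55%, beside 4.92% and 3.61% of all tested genes. These stress genes were chosen with earlier results of these data known, so their shares are not independent of those results. In 13 both mutant arrays lay above the wild-type arrays, or 59.1% beside 21%. Their summed signal was 9705 and 11235 in the mutant and 8703 and 11068 in the wild type. Cytosolic ribosomal protein genes shared the gap between wild-type replicates, with a median of 0.46 over 80 genes, and lay at -0.14 between the strains, with 0 past the limma test, adjusted or not. Their summed signal was 95160 and 105011 in the mutant and 101068 and 139890 in the wild type, while that of the 33 genes was 25524 and 30173 in the mutant and 27812 and 38626 in the wild type. The part of either list in the results above was not tested.

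A ratio of 2 genes within an array is free of the centring of that array, and compares how the 2 genes changed. It is not free of array differences that depend on signal, where the 2 genes differ in brightness. Such ratios were formed for 12 pairs of genes that act at the same step, each set to 0 at its wild-type mean. HXK2 over GLK1 stood at -0.85 and -0.66 in the mutant cultures, against -0.01 and 0.01 in the wild-type cultures. The wild-type cultures, 0.64 and 0.61 apart in the single genes, thus agreed in the ratio, and both mutant cultures lay below them, by a change of -0.75. HXK2 over HXK1 stood at -0.73 and -0.41 in the mutant and -0.08 and 0.08 in the wild type. TKL1 over TKL2 stood at -0.82 and -0.70 in the mutant, against 0.14 and -0.14 in the wild type, a change of -0.76. Its size rests on the TKL2 probe set used, since the others gave strain differences of 0.78 and 0.25 for TKL2, against 0.40. The change in HXK2 over GLK1 was -0.78 with quantile normalisation and -0.75 with cyclic loess, and that in TKL1 over TKL2 was -0.68 and -0.71. ENO2 over ENO1 changed by -0.22 and GPD1 over GPD2 by -1.14. For GPD1 over GPD2 the wild-type cultures stood at -0.96 and 0.96, and the mutant cultures lay below the lower of them, one of them at -1.28 and the other by a narrow margin. In these 5 pairs the strains did not overlap, and in the other 7 they did. Among all pairs of tested genes, 40.5% did not overlap. The two-sided exact permutation test gave p = 0.333 for each of the 5, the smallest that 2 arrays against 2 allow, and 0.8 adjusted over the 12 pairs, so this test cannot reach 0.05 with 2 arrays per strain.

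**Figure D4:**
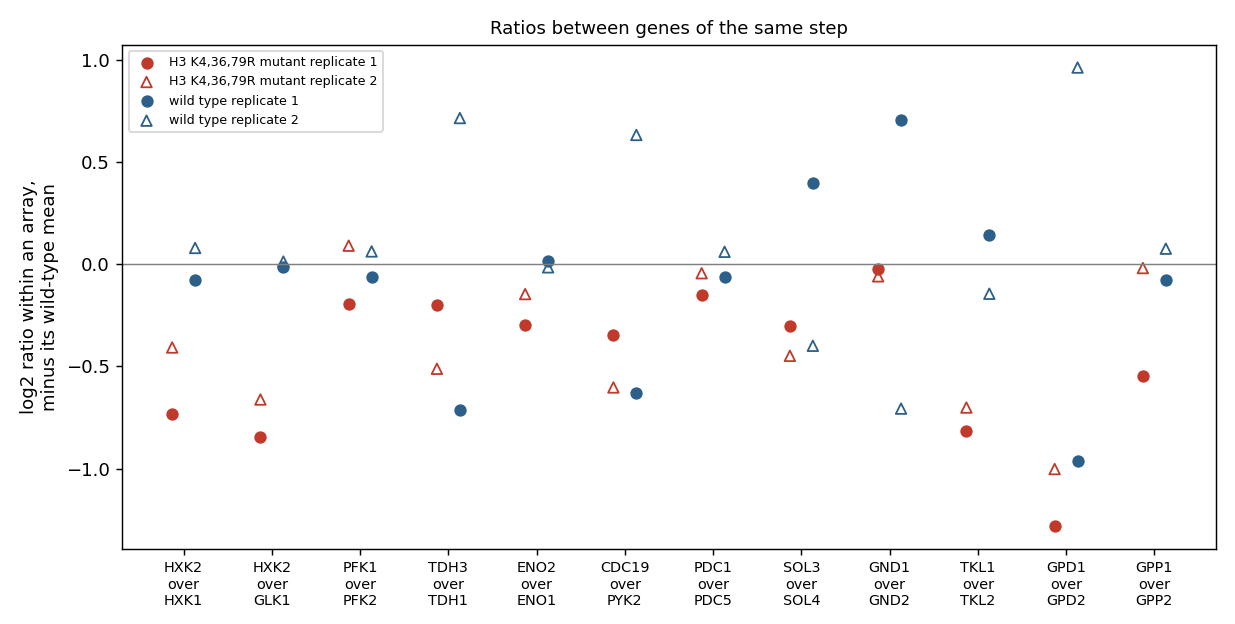
Log2 ratio of 2 genes of the same step within each array, minus the mean of the wild-type arrays; red marks are mutant and blue marks wild type, circles replicate 1 and triangles replicate 2. For HXK2 over GLK1 the blue marks coincide near 0 and the red marks stand at -0.85 and -0.66, whereas for GND1 over GND2 the blue marks lie apart at 0.71 and -0.71.

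Other genes of the same pathways were followed on 3 lists, and 0 of the 46 tested passed the limma test in either direction, with 5 higher and 2 lower at an unadjusted p under 0.05. Those are 10.9% and 4.35% of the 46, beside 4.92% and 3.61% of all tested genes. Of 16 regulators and branch enzymes of glycolysis, 9 lay higher and 7 lower in the mutant, with a median of 0.03. The transcription factor genes GCR1, GCR2 and RAP1, whose products drive glycolytic genes, differed by 0.08, 0.06 and 0.03. PFK26, a 6-phosphofructo-2-kinase that makes the activator of phosphofructokinase, read 114 and 136 in mutant cultures, against 86.3 and 71.9 in wild-type cultures. Its difference of 0.75 (SE 0.17, limma unadjusted p = 0.0028, adjusted p = 0.256) was the largest of these lists. FBP26, the bisphosphatase that breaks the same activator down, read 115 and 117 in the mutant and 79.3 and 89.5 in the wild type, at 0.56 (limma adjusted p = 0.457). The signals of both genes thus lay higher in both mutant cultures, as in 4 of the 16, or 25% beside 21% of all tested genes. PFK27, another 6-phosphofructo-2-kinase gene, read 37.0 and 34.1 in the mutant and 47.7 and 27.0 in the wild type, at 0.09. Its mutant arrays lay between the wild-type arrays. At the low end were TYE7, another activator of glycolytic genes, at -0.53 and GPM2, a relative of GPM1, at -0.46 (limma adjusted p = 0.574 and 0.568).

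Among 15 tested genes around the pentose phosphate pathway, 6 lay higher and 9 lower, with a median of -0.03. NQM1, a transaldolase paralogue, stood highest at 0.49 (SE 0.17, limma adjusted p = 0.509), from 110 and 133 in the mutant against 90.1 and 94.5 in the wild type. PRS1, a phosphoribosyl pyrophosphate synthetase gene, followed at 0.26. STB5, the activator of NADPH-producing genes, was lowest at -0.32, and PRS4 stood at -0.27. Of 15 tested genes of glycerol use, transport and signalling, 9 lay higher and 6 lower, with a median of 0.12. In 7, or 46.7% beside 21% of all tested genes, both mutant arrays lay above the wild-type arrays. In 4, or 26.7% beside 18.5%, both lay below. DAK2, a dihydroxyacetone kinase gene, was highest at 0.70 (SE 0.21, limma adjusted p = 0.457), with 60.2 and 58.8 in the mutant against 36.1 and 41.8 in the wild type. PBS2, the kinase that activates Hog1 in the osmotic response, stood at 0.51. GUT2, the mitochondrial glycerol-3-phosphate dehydrogenase of glycerol use, was lowest at -0.62 (SE 0.32), carried by mutant replicate 1, since it read 264 and 620 in the mutant against 682 and 662 in the wild type. GUT1, glycerol kinase, was next at -0.19. YIG1 lay below the filter.

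Leaving out either wild-type culture moved the list in opposite directions. Without wild-type replicate 1 the median over the 33 genes was -0.32, beside -0.03 over all tested genes, with 25 of the 33 lower. At an unadjusted p under 0.05, 15 were lower and 2 higher, or 45.5% and 6.06% of the list, where 14.5% and 13.7% of all tested genes stood. Without wild-type replicate 2 the median was 0.11, beside 0.01 over all tested genes, with 23 of the 33 higher. There 8 were higher and 0 lower at that level, or 24.2% of the list up, where 7.41% of all tested genes were up and 3.5% down. In neither fit did any of the 33 genes pass after adjustment, with lowest limma adjusted p-values of 0.0759 and 0.299. The same fits moved TDH3 to -0.93 and 0.37, CDC19 to -0.52 and 0.24, and GND2 to -0.75 and 0.61. Where the strains did not overlap, no sign could turn when a wild-type array was left out, so only the sizes are informative. In the same order of fits they were -0.97 and -0.33 for HXK2, -1.23 and -0.34 for PDC6, -0.09 and -0.14 for GND1, -0.59 and -0.28 for RPE1, and -0.64 and -0.08 for TKL1. For GPP1 they were -1.03 and -0.41, for GPP2 -0.67 and -0.20, and for SOL4 0.17 and 0.85. A fit without 1 array has 1 residual degree of freedom and takes the lone wild-type array to vary like the mutant arrays.

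**Figure D5:**
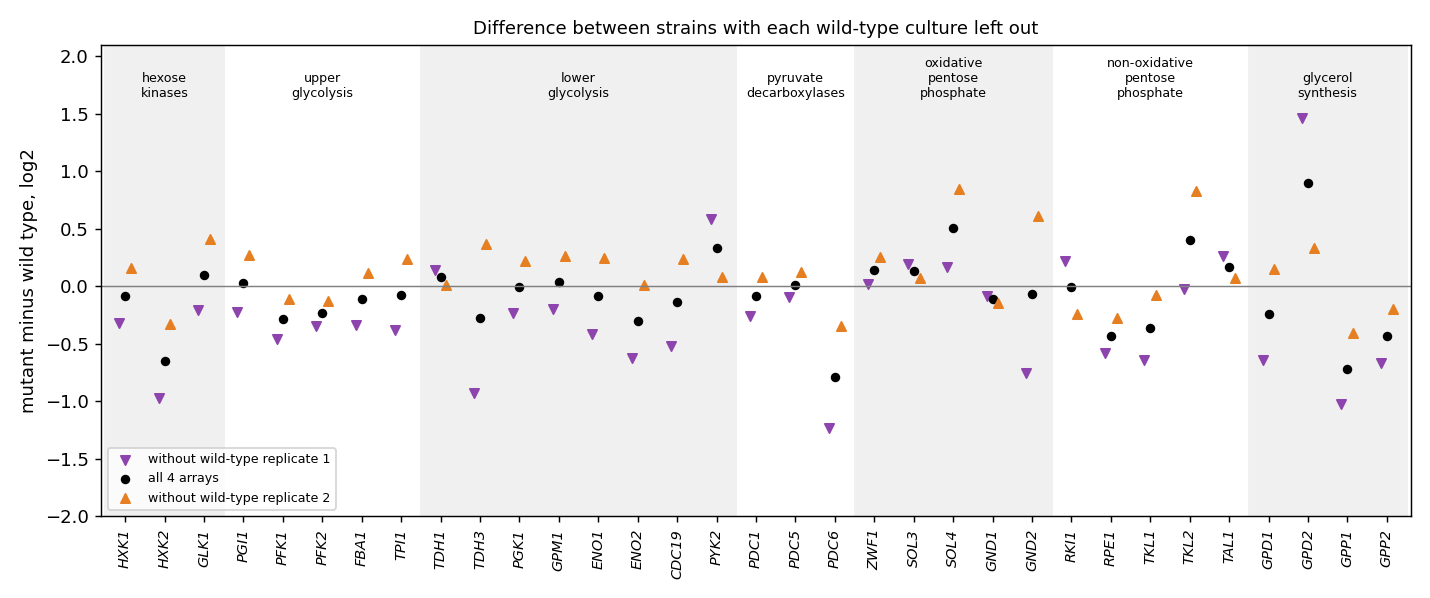
Log2 difference, mutant minus wild type, of each gene without wild-type replicate 1 (purple), with all 4 arrays (black) and without wild-type replicate 2 (orange). TDH3 stands at -0.93, -0.28 and 0.37, and GPP1 at -1.03, -0.72 and -0.41. TDH3's mutant arrays lie between the wild-type arrays and GPP1's below both, which fixes the signs of the outer values.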

How the data were processed

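RNA of 4 cultures was hybridised to Affymetrix yeast arrays, about 20 ug of total RNA each per the labels' protocols. The deposited values are linear intensities, with 1 signal for each probe set and array, made by the authors; the submitters' processing notes name MAS5. Its version and scaling target were not given in the sources used here, nor was any further factor on the mutant arrays. Sample titles gave the groups and replicate numbers. Of 9335 probe sets, 6504 had 1 gene in the platform annotation, and their 5656 genes were all found in RefSeq R64 by gene ID. The dimmest 25% of those probe sets by mean signal were left out, and the brightest probe set per gene was kept. A value of 2, the rounded 10th percentile of all signals, which understates changes of dim genes, was added before log2, and each array was centred on its median over the 4576 tested genes, which removes a single scaling factor per array. The strains were fitted with lmFit and eBayes of limma 3.58.1 (R 4.3.3), using an intensity trend, with 2 residual degrees of freedom and 5.63 prior ones. Tests were two-sided, with Benjamini-Hochberg adjustment over all tested genes and a threshold of 0.05. The fit was tested on simulated data. The number of arrays limits the precision.

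The genes, lists and tests were chosen with earlier results of these data known. The signal limit of 1000 and the 12 gene pairs were chosen after the values were seen. All listed genes may be named. Full statistics were given for genes at an unadjusted p under 0.05 and for the largest strain difference and the largest wild-type replicate difference of each role. Of the other pathway genes, the 2 highest and 2 lowest of each list were named. GCR1, GCR2, RAP1, PFK27 and YIG1 were added after their values were seen. Promoter sequences were not used here. Alternatives covered normalisation (none, quantile, cyclic loess), pseudocount (none, 9), filter (none, lowest 50%), averaging probe sets, no trend in the variance model, the replicate number as a block and leaving out each array. Python 3.11.15 with pandas 2.3.3 and matplotlib 3.10.9 was used for tables and figures.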

Additional observations from a re-analysis of the deposited data

How the results depend on the processing

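In all 14 alternatives 0 of the listed genes passed the test, at a lowest limma adjusted p of 0.0759; 33 were tested in each, except 29 with the lowest 50% left out. At an unadjusted p under 0.05, from 0 to 8 of them were higher and from 0 to 15 lower. The count over all tested genes was 2, and it was 11 without centring, 9 with quantile normalisation, 8 with cyclic loess, 7 with the lowest 50% left out, 9 with the mean of probe sets, and 1 without an intensity trend. With 1 array left out it was 1 for either wild-type array, 14 for mutant replicate 1 and 21 for mutant replicate 2. With the replicate number as a block it was 32. The replicate differences of the strains correlated at 0.04 over genes, which cannot decide whether the numbers pair the cultures. With the block GPP1 had the lowest limma adjusted p of the list, 0.160, and no listed gene passed. The median over the listed genes was -0.08, and was lowest at -0.32 when wild-type replicate 1 was left out and highest at 0.11 when replicate 2 of that strain was; without centring it was -0.19, where all tested genes lay at -0.11.

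Of the 33 genes, 15 kept their direction in all 14 alternatives, among them those whose strains did not overlap, in which leaving out 1 array cannot turn the sign, and 18 turned in at least 1, of which 10 turned only when an array was left out. Without centring GLK1 was at -0.0051, PGI1 at -0.083, TDH1 at -0.030, GPM1 at -0.074 and PDC5 at -0.095. With quantile normalisation HXK1 was at 0.053 and PGK1 at 0.029, and with cyclic loess TPI1 was at 0.016 and PGK1 at 0.079. PDC5 was at -0.0039 without a filter. Leaving out 1 array at a time, HXK1 ranged from -0.32 to 0.16, GLK1 from -0.21 to 0.41, PGI1 from -0.22 to 0.27, FBA1 from -0.34 to 0.11, TPI1 from -0.38 to 0.23 and TDH1 from -0.073 to 0.23. TDH3 ranged from -0.93 to 0.37, PGK1 from -0.24 to 0.22, GPM1 from -0.20 to 0.26, ENO1 from -0.42 to 0.24, ENO2 from -0.62 to 0.0065 and CDC19 from -0.52 to 0.24. PDC1 ranged from -0.26 to 0.083, PDC5 from -0.098 to 0.12, GND2 from -0.75 to 0.61, RKI1 from -0.35 to 0.33, TKL2 from -0.027 to 0.83 and GPD1 from -0.64 to 0.15. The cause of these turns was not tested. How far the dim signals of PDC6, PYK2, GND2 and GPD2 stand above background was not tested.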
